A study of Mus musculus with 16 samples.

Results

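The genes described here are 36 factors that fold, oxidise, isomerise and dispose of proteins in the endoplasmic reticulum (ER), or that sense and relay ER stress. They were chosen by symbol for their roles in the pathway, with earlier results of these data known, and all 36 were among the 22869 gene symbols of the count table. They fall into 12 lumenal chaperones and J proteins, 8 disulfide or proline isomerases and oxidases, 10 factors of ER-associated degradation (ERAD), and 6 stress sensors and transcription factors.

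The samples were pancreata of mouse embryos at embryonic day 15.5 on a mixed background, with RNA sequenced from 4 control, 4 Pdx1LacZ/+, 3 Oc1+/- and 5 Pdx1LacZ/+;Oc1+/- libraries. Pdx1 is a homeodomain factor of the pancreas, and Oc1 is the protein of the gene listed as Onecut1. The labels name no other allele or agent and give no litter or sex. The 3 mutant groups are called Pdx1, Oc1 and double heterozygotes below. Although the source label speaks of progenitors, the tissue label names whole pancreata, and exocrine enzymes were detected: Ctrb1, a chymotrypsinogen, had a mean log2 CPM (normalised read count) of 13.65 per the authors' deposited table.

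Secretory proteins enter the ER unfolded. Chaperones such as BiP (Hspa5) bind them, disulfide isomerases pair their cysteines, and chains that fail to fold are drawn back to the cytosol and degraded by ERAD. When unfolded chains accumulate, the sensors Ern1 (IRE1), Atf6 and Eif2ak3 (PERK) raise the folding and degradation machinery. PERK also slows translation and favours Atf4, which induces Ddit3 (CHOP) and Trib3. Acinar cells, which make digestive enzymes, are among the cells with the most ER, and they carry high levels of this machinery without injury.

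ER stress response elements in the promoters are shown first, since they are the sequence feature these genes are known for. The ERSE, bound by ATF6 together with NF-Y, was searched as CCAAT, 9 unspecified bases and CCACG on both strands, with every match exact. The window ran from 250 bases before to 50 after each RefSeq transcription start. Promoters were taken from RefSeq on GRCm38.p6, matched by symbol or synonym for 32 of the 36 genes. Derl1, Hyou1, Manf and Atf6 had none. An ERSE was present in 10 of 32 genes (31.2%), while 39 of all 32851 promoters of the same length held it (0.119%). The genes were chosen for their function, so this share is a description and was not tested. The ends of the element taken alone are common: CCACG occurred in 27 of 32 genes (84.4%) and 32.8% of all promoters, and CCAAT in 26 of 32 genes (81.2%) and 37.4% of all promoters.

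The ERSE of each gene is printed with 20 bases on either side, 5' to 3' on the gene's strand, to show each core in its setting. Capitals mark the fixed letters of the element. CCAAT comes first where the element reads along the gene, and CGTGG comes first where it lies on the other strand. Derl3 is given in full further down.
Hspa5 (chr2:34772005-34772063, plus strand): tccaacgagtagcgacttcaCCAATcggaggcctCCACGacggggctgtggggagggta
Hsp90b1 (chr10:86705618-86705676, minus strand): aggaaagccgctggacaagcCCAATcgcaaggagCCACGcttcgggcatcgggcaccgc
Hsp90b1 (chr10:86705513-86705571, minus strand): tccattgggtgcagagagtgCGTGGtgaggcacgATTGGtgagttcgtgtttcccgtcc
Calr (chr8:84847055-84847113, minus strand): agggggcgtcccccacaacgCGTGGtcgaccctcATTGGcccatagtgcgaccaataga
Canx (chr11:50325780-50325838, minus strand): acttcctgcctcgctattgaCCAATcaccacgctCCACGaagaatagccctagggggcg
Dnajc3 (chr14:118937807-118937865, plus strand): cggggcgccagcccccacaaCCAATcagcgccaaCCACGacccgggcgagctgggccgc
Creld2 (chr15:88819500-88819558, plus strand): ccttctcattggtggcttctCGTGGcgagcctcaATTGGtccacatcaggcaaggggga
Pdia6 (chr12:17266471-17266529, plus strand): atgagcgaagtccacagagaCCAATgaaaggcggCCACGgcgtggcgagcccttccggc
Ero1lb (chr13:12565662-12565720, plus strand): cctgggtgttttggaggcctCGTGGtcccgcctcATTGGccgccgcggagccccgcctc
Syvn1 (chr19:6046512-6046570, plus strand): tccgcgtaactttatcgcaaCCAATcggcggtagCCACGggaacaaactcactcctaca

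The elements started between 44 and 212 bases before the transcription start, nearest in Syvn1 and farthest in Hsp90b1, which carried a pair. Of the 11 matches, 6 read along the gene and 5 on the other strand. The related ERSE-II (ATTGG, any base, CCACG) was present in Dnajb11 and Herpud1 and in 12 of all promoters (0.0365%). Dnajb11 is the member whose element lay past the start, by 7 bases.
Dnajb11 (chr16:22857832-22857882, plus strand): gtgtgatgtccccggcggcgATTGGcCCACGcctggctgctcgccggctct

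Whole promoters are given for Derl3, the member that changed most, and for Herpud1, the member that held both an ERSE-II and an AARE. The AARE, searched as TTGCATCA, is an element bound by Atf4 and C/EBP factors, and 0.895% of all promoters held it. Capitals mark the ERSE in Derl3, and the AARE followed by the ERSE-II in Herpud1.
Derl3 (chr10:75893148-75893447, plus strand): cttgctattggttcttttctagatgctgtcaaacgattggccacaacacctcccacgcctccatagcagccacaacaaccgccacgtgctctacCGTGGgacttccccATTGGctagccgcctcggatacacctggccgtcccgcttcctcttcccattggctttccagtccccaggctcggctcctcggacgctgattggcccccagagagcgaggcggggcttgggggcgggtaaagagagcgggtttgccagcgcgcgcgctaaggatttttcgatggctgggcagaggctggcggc
Herpud1 (chr8:94386179-94386478, plus strand): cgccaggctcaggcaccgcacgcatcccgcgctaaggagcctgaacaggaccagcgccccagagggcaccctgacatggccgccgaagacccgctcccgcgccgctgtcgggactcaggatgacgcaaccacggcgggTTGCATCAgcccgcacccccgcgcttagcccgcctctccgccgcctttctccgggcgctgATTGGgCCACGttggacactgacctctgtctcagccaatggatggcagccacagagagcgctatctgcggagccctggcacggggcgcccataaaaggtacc

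The UPRE, searched as TGACGTGG, matched none of the 32 genes and 0.676% of all promoters. These windows hold no letters of that form, which says nothing of the factor that binds it. Sdf2l1, Sel1l, Edem1 and Edem2, which appear among the largest changes below, had neither an ERSE nor an ERSE-II in this window.

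**Figure D1:**
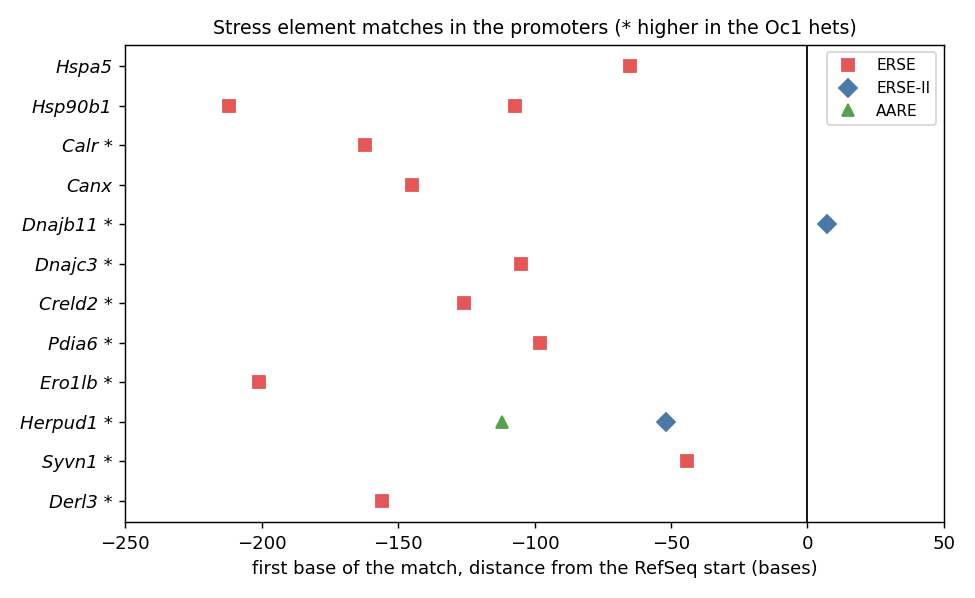
Position of exact matches to the ERSE (squares), ERSE-II (diamonds) and AARE (triangle) in the 12 gene promoters that held any, as the distance of the first base from the RefSeq start in bases. ERSE matches lie from 212 to 44 bases before the start, and genes with and without an asterisk (higher in the Oc1 heterozygotes) both carry them.

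All expression values come from the authors' deposited table of comparisons, which lists 2283 genes. Values and depth per library were not analysed here, because no label ties the count columns to samples. A gene is listed where some comparison reached both a 1.5-fold change and an adjusted p under 0.1, so an unlisted gene has no value and may still have changed by less, or by more with a wide spread. Of the 36 genes 22 were listed and 14 were not. A gene was called where the adjusted p of the authors' edgeR test was under 0.05 with a fold change of at least 1.5. Errors are standard errors implied by each log2 fold change and its p-value, and they cover the spread between these libraries. Onecut1 itself stood at -0.48 in the Oc1 heterozygotes (adjusted p = 0.146) and Pdx1 at -0.47 in the Pdx1 heterozygotes (adjusted p = 0.00427) per the authors' deposited table, so Onecut1 did not pass the test against control. In the double heterozygotes Pdx1 stood at -0.61 (adjusted p = 5.03e-07) and Onecut1 at -0.27 (adjusted p = 0.954), and Onecut1 stood at 0.42 in the Pdx1 heterozygotes (adjusted p = 0.828), per the authors' deposited table. Between heterozygous groups Onecut1 did pass the authors' edgeR test. It stood at -0.70 in the double against the Pdx1 heterozygotes (adjusted p = 0.0319). In the Pdx1 against the Oc1 heterozygotes it stood at 0.90 (adjusted p = 0.0019), per the authors' deposited table.

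Against control, 22 of the 36 genes rose in the Oc1 heterozygotes (61.1%) and none fell. Over all genes counted, 3.66% rose and 2.59% fell. The 36 genes were chosen with earlier results of these data known, so the 61.1% describes the chosen list and was not tested. Further lists of the pathway, given below, had smaller shares, from 2.94% to 26.7%. By role, 8 of 12 chaperones and J proteins, 5 of 8 isomerases and oxidases, 7 of 10 ERAD genes and 2 of 6 sensors and factors were called. The 22 changes ran from 1.5-fold in Syvn1 to 5.29-fold in Derl3 per the authors' deposited table. At least 2-fold was reached by 6 genes, of which 5 belong to ERAD and 1, Sdf2l1, to the chaperones. All 22 listed genes entered the table through this comparison, so their number among listed genes carries no information of its own.

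**Figure D2:**
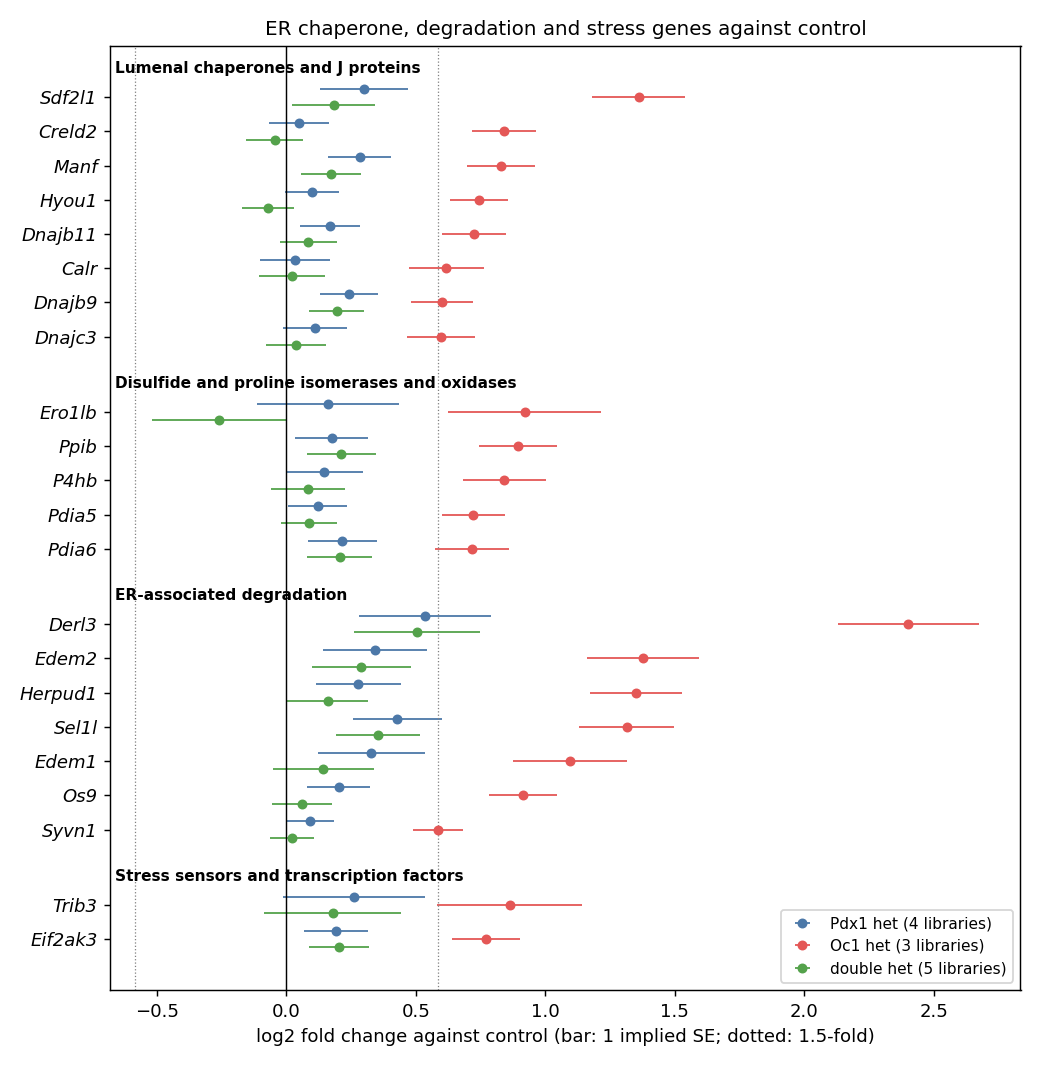
Log2 fold change against control of the 22 listed genes, by role, in the Pdx1 (blue), Oc1 (red) and double heterozygotes (green), with 1 implied standard error as bars and 1.5-fold as dotted lines. Every red point lies at 0.59 or above, led by Derl3 at 2.40, and every blue or green point lies at 0.54 or below.

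Of the 6 genes with at least a 2-fold rise, the 5 of ERAD come first. Derl3, a derlin of the membrane channel through which misfolded chains leave the ER, stood at 2.40 in log2 (implied standard error 0.27, adjusted p = 2.91e-15 per the authors' deposited table). Its mean level of 3.63 log2 CPM was the lowest among the listed ERAD genes. Edem2, an alpha-mannosidase-like factor that marks glycoproteins for disposal, stood at 1.38 (implied standard error 0.22, adjusted p = 2.52e-08 per the authors' deposited table). Its relative Edem1 stood at 1.10 with a like error of 0.22 (adjusted p = 2.78e-05 per the authors' deposited table), and Edem3 was not listed.

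The ubiquitin ligase complex of the ER membrane rose in several of its parts. Herpud1, a scaffold of this complex, rose by 1.35 (implied standard error 0.18, adjusted p = 1.25e-11) and Sel1l, the adaptor of the ligase, by 1.31 (implied standard error 0.18, adjusted p = 3.09e-10) per the authors' deposited table. Os9, a lectin that hands glycoproteins to Sel1l, rose by 0.91 (adjusted p = 9.47e-10 per the authors' deposited table). Syvn1, the ligase itself (Hrd1 in yeast), rose by 0.59, which is 1.5-fold and at the edge of the fold minimum (adjusted p = 1.08e-07 per the authors' deposited table). Sel1l thus rose 2.49-fold and its partner ligase 1.5-fold, and the difference between genes was not tested. Derl1 and Derl2, the other derlins, were not listed.

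Among the chaperones, Sdf2l1 stood apart at 1.36 (2.57-fold, implied standard error 0.18, adjusted p = 3.2e-11 per the authors' deposited table). It is an ER protein that partners Dnajb11, whose own change was 0.72 (implied standard error 0.12, adjusted p = 4.3e-07 per the authors' deposited table). Creld2 and Manf, small ER proteins that are induced by ER stress and can be secreted, rose by 0.84 and 0.83 (adjusted p = 3.04e-09 and 3.62e-08 per the authors' deposited table). Hyou1, the nucleotide exchange factor of BiP, rose by 0.74 (adjusted p = 6.46e-09 per the authors' deposited table). These are changes of 1.67-fold to 1.79-fold.

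The other chaperones that rose lay close to the listing limit. Calr, a lectin chaperone of glycoproteins, rose by 0.62 (1.53-fold), and the J proteins Dnajb9 and Dnajc3 rose by 0.60 (1.52-fold and 1.51-fold; adjusted p = 0.000448, 1.87e-05 and 0.000153 per the authors' deposited table). With Syvn1 these are the 4 genes under 1.6-fold. The major chaperones Hspa5 (BiP) and Hsp90b1 (GRP94), the membrane lectin Canx and the J protein Dnajc10 were not listed in any comparison. The BiP system was thus called in its exchange factor and in 3 of 4 J proteins but not in the chaperone itself. Hspa5, Hsp90b1 and Canx carry an ERSE, as printed above, and so do the called genes Calr, Dnajc3 and Creld2. An ERSE was held by 7 of the 20 called genes with a promoter (35.0%) and 3 of the 12 others (25.0%).

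The listed isomerases and oxidases rose by 0.72 to 0.92, and the listing limit hides smaller changes. Ero1lb, the oxidase that recharges the isomerases and is best known from pancreas, rose by 0.92 with the largest error of the 22 genes (implied standard error 0.29, adjusted p = 0.0161 per the authors' deposited table). Ppib, a proline isomerase of the ER (cyclophilin B), rose by 0.90 and P4hb, the archetypal disulfide isomerase, by 0.84 (adjusted p = 2.33e-07 and 6.49e-06 per the authors' deposited table). Pdia5 and Pdia6, further disulfide isomerases, each rose by 0.72 (adjusted p = 3e-07 and 1.88e-05 per the authors' deposited table). Pdia3, which works with the lectin chaperones, Pdia4, and Ero1l, the widely expressed oxidase, were not listed.

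Of the stress sensors and factors 2 of 6 genes were called (33.3%), set beside 20 of 30 chaperone, isomerase and ERAD genes (66.7%), and this difference was not tested. Over all genes counted, 3.66% rose. The further lists below had the other order: 26.7% of other signalling genes rose, with 14.6% of other folding factors and 2.94% of other ERAD genes. Eif2ak3, the sensor kinase PERK, rose by 0.77 (1.71-fold, implied standard error 0.13, adjusted p = 3.4e-07 per the authors' deposited table). Trib3, a pseudokinase induced downstream of Atf4 and Ddit3, rose by 0.86 (1.82-fold, implied standard error 0.28, adjusted p = 0.0182 per the authors' deposited table). Its mean level was 0.55 log2 CPM, or 1.47 CPM, the lowest among the 22 listed genes. Ddit3 and Atf4, and the sensors Atf6 and Ern1, were not listed in any comparison. Of Ddit3, Trib3 and Atf4, 1 of 3 was therefore called. Atf4 is regulated largely through translation, which these libraries do not measure.

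Other genes of the pathway were counted from further lists. Of 15 other genes of unfolded protein response signalling, 4 rose (26.7%) and none fell. They include Bhlha15, which is also on the list of acinar factors counted below. Xbp1, the factor whose mRNA IRE1 splices, stood at 0.78, and Bhlha15 (Mist1), a factor of the mature acinar secretory apparatus, at 0.92 per the authors' deposited table (adjusted p = 3.69e-07 and 2.25e-05). The ER-bound factors Creb3l4 and Creb3l1 stood at 1.07 and 0.64 (adjusted p = 1.46e-05 and 5.18e-05 per the authors' deposited table). Of 29 other genes of the integrated stress response, 4 rose (13.8%) and none fell. Nupr1, a small stress-induced nuclear protein of pancreas, led them at 1.65, with Asns, asparagine synthetase, at 0.99 and Chac1, a glutathione-degrading enzyme, at 1.05 (adjusted p = 1.68e-10, 5e-07 and 0.0424 per the authors' deposited table). The mitochondrial serine enzyme Shmt2 stood at 0.63 (adjusted p = 4.24e-07 per the authors' deposited table).

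Of 41 other ER folding factors, 6 rose (14.6%) and none fell. Pdia2, the pancreatic disulfide isomerase, rose by 2.80 and Erp27, a PDI-like protein found mainly in pancreas, by 2.08 per the authors' deposited table (adjusted p = 2.5e-08 and 2.25e-13). Fkbp11, a proline isomerase of secretory cells, rose by 1.77, Serp1, which stabilises membrane proteins at the translocon, by 1.02, Sil1, another exchange factor of BiP, by 0.71, and Qsox1, a sulfhydryl oxidase, by 0.62 (adjusted p = 1.89e-16, 1.11e-07, 1.05e-07 and 0.000367 per the authors' deposited table). Of 34 other ERAD genes just 1 rose, Man1a at 0.62 (adjusted p = 1.31e-05 per the authors' deposited table). That share of 2.94% lies near the 3.66% of all genes and is no result about this list.

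**Figure D3:**
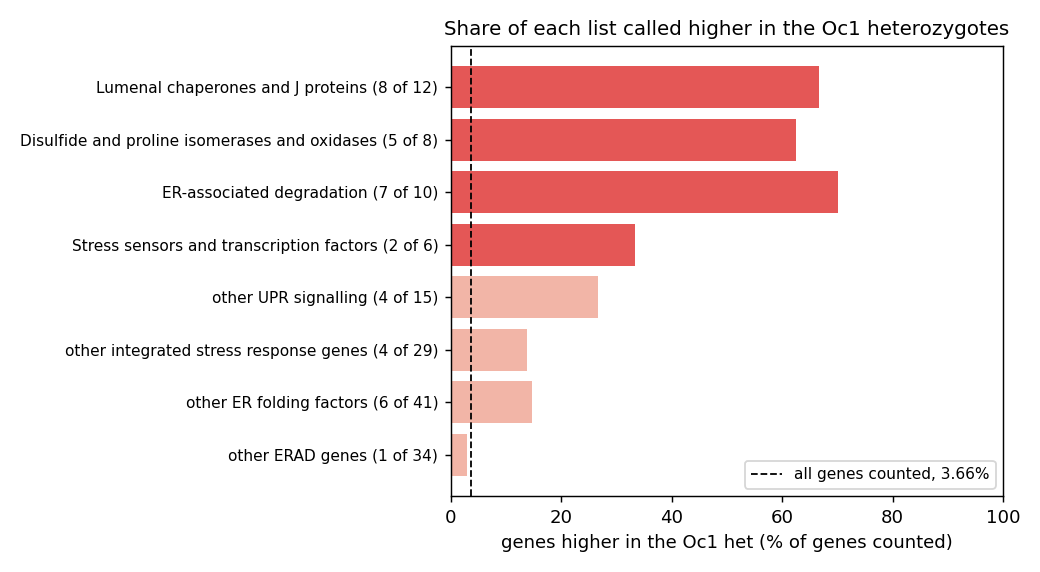
Percentage of each list called higher in the Oc1 heterozygotes against control, with the number called and counted, for the 4 roles of the 36 genes (dark bars) and 4 further pathway lists (light bars). The dashed line is the 3.66% of all genes, and the other ERAD genes, at 2.94%, are the list that lies below it.

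Markers of cell types moved in the same libraries. Of 25 acinar enzyme genes 21 rose in the Oc1 heterozygotes, and the 23 listed enzymes ran from 0.35 to 4.49 per the authors' deposited table. Of 6 acinar factors 3 rose and the rest were not listed. Rbpjl and Ptf1a stood at 1.53 and 0.84 (adjusted p = 2.33e-07 and 0.000203 per the authors' deposited table), and Bhlha15 is given above. Among 16 endocrine markers 5 rose and 2 fell, among 10 mesenchyme markers 3 fell, among 8 neural and Schwann markers 3 fell and among 8 erythroid markers 2 fell. No marker of the endothelium was listed, 1 of 10 duct markers (Muc1) and 1 of 8 leukocyte markers (C1qa) rose, and no liver marker was called. Xist stood at -8.78 and the Y-linked Ddx3y at 2.64 (adjusted p = 0.00249 and 0.037 per the authors' deposited table), and the labels give no sex. The part of acinar cells, of other cells and of sex in the ER genes was not tested. In bulk tissue, more acinar cells and more of these transcripts per acinar cell cannot be told apart.

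In the Pdx1 heterozygotes none of the 36 genes was called, while 0.206% of all genes rose and 0.0437% fell. The authors' edgeR test gave 4 listed genes a raw p below 0.05, all higher: Derl3 at 0.54, Sel1l at 0.43, Manf at 0.28 and Dnajb9 at 0.24 per the authors' deposited table (adjusted p = 0.803, 0.558, 0.679 and 0.774). All 22 listed genes stood above 0, the lowest being Calr at 0.03. Of the 41 other ER folding factors 1 was called (2.44%), Erp27 at 0.90 (adjusted p = 0.0446 per the authors' deposited table). No gene of the remaining pathway lists was called. The upper end of the implied 95% interval stayed under 1.5-fold higher for 14 of the 22 genes and reached it for 8, so a rise of that size was not shown to be absent in Sdf2l1, Ero1lb, Herpud1, Sel1l, Derl3, Edem1, Edem2 and Trib3. Acinar enzymes stood between -1.16 and 1.70 in these libraries per the authors' deposited table, with 2 of 25 called higher.

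The double heterozygotes, which carry both alleles, also had none of the 36 genes called, while 0.188% of all genes rose and 0.555% fell. The authors' edgeR test gave 2 listed genes a raw p below 0.05, Derl3 at 0.50 and Sel1l at 0.35 per the authors' deposited table (adjusted p = 0.619 and 0.565). Values above 0 were seen in 19 of the 22 listed genes and below 0 in 3. Hyou1 and Creld2, which rose in the Oc1 heterozygotes, stood at -0.07 and -0.04, and Ero1lb at -0.26 (adjusted p = 1, 1 and 0.999 per the authors' deposited table). The upper end of the implied 95% interval stayed under 1.5-fold higher for 18 of the 22 genes and reached it for Sel1l, Derl3, Edem2 and Trib3. For Ero1lb the lower end lay at -0.77, past 1.5-fold lower. Acinar enzymes stood between -1.48 and 1.75 per the authors' deposited table, with 1 of 25 called higher, while 10 of 16 endocrine and 6 of 9 liver markers fell. The comparisons with control share the 4 control libraries.

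The 22 genes with values were listed for being higher in the Oc1 heterozygotes, which favours lower values in any group set against them. The shared direction and the numbers called below are therefore a description. In the Pdx1 compared with the Oc1 heterozygotes 12 of the 36 genes were lower and none higher, where 2.46% of all genes were lower and 2.2% higher. Derl3 was lower by 1.87, Herpud1 by 1.07, Sdf2l1 by 1.06 and Edem2 by 1.03 in log2 (adjusted p = 1.81e-09, 2.8e-07, 8.31e-07 and 9.12e-05 per the authors' deposited table). Neither Eif2ak3 at -0.58 nor Trib3 at -0.60 was called, the first because it missed the fold minimum and the second at adjusted p = 0.15 per the authors' deposited table. With the fold minimum dropped, 20 of the 22 listed genes were lower, and the exceptions were Ero1lb and Trib3. In the same comparison 20 of 25 acinar enzymes and 3 of 6 acinar factors were lower, 3 of 10 mesenchyme and 3 of 8 neural and Schwann markers were higher, and their part was not tested. Xist was higher by 8.32 (adjusted p = 0.0054 per the authors' deposited table), and the part of sex was not tested either.

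In the double compared with the Oc1 heterozygotes, a comparison derived from the table, 16 of the 36 genes were lower and none higher (2.79% and 2.09% of all genes). Unlisted genes had no test here and count as not called in these shares. Derl3 was lower by 1.90 (implied standard error 0.26, adjusted p = 9.32e-11), Herpud1 by 1.19 and Ero1lb by 1.18 (adjusted p = 3.99e-10 and 0.000833, normal test on derived values, Benjamini-Hochberg). By role, 6 of 12 chaperones, 4 of 8 isomerases and oxidases, 6 of 10 ERAD genes and none of the 6 sensors and factors were lower. Eif2ak3, at -0.57, had an adjusted p of 0.000224 and missed the fold minimum, and Trib3 stood at -0.68 (adjusted p = 0.183). Acinar enzymes were lower in 21 of 25 cases, and 3 of 10 mesenchyme and 3 of 8 neural and Schwann markers were higher, whose part was not tested. Xist and Tsix were called higher here too, and the part of sex was not tested. All these comparisons use the same 3 Oc1 libraries, so they are not independent of the comparison with control.

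In the double compared with the Pdx1 heterozygotes none of the 36 genes was called, where 0.232% of all genes were higher and 0.63% lower. The authors' edgeR test gave none of the 22 listed genes a raw p below 0.05. They ran from -0.42 in Ero1lb to 0.04 in Ppib in the turned values of the authors' deposited table (adjusted p = 0.823 and 1). A miss of the threshold does not show that the groups are alike.

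**Figure D4:**
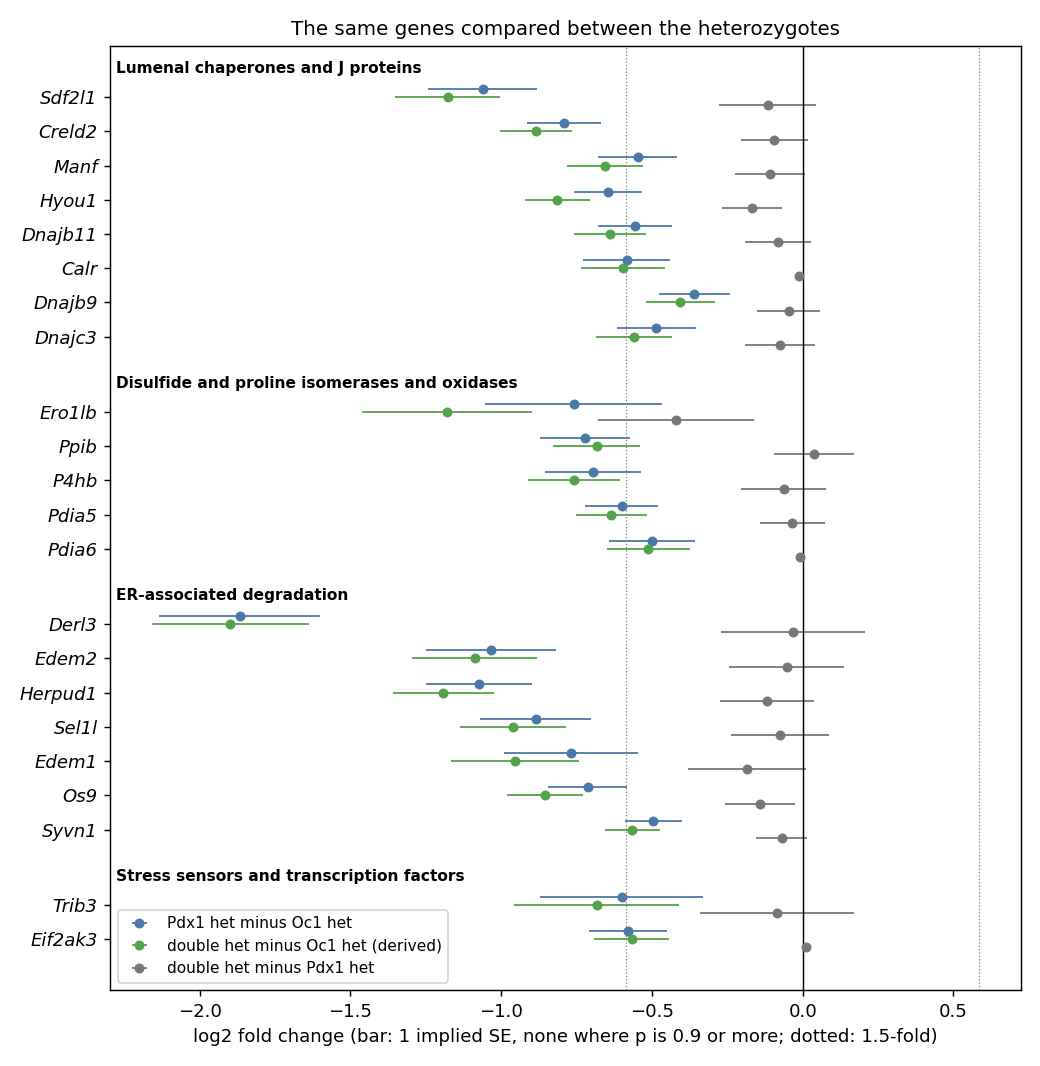
Log2 fold change of the 22 listed genes between heterozygous groups, by role, with 1 implied standard error as bars (none where the unadjusted p was 0.9 or more) and 1.5-fold as dotted lines. Blue and green points, the Pdx1 and double heterozygotes minus the Oc1 heterozygotes, run from -1.90 to -0.36, and grey points, double minus Pdx1 heterozygotes, lie between -0.42 and 0.04.

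The interaction asks whether the change with the Oc1 allele depended on the Pdx1 genotype. It is the change in the double heterozygotes less the sum of the changes in both single heterozygotes. It was negative and called for 21 of the 36 genes (58.3%) and positive for none, while 2.97% of all genes were negative and 1.66% positive. For Derl3, the single changes of 0.54 and 2.40 set beside 0.50 in the double heterozygotes gave -2.43 (implied standard error 0.36, adjusted p = 1.16e-08, normal test on derived values). For Sdf2l1 the interaction was -1.48 (implied standard error 0.24, adjusted p = 2.54e-07 by the same test). Trib3 was the listed gene that did not pass, at -0.95 with an implied standard error of 0.38 (adjusted p = 0.215). These genes were listed for their rise in the Oc1 heterozygotes, which enters the interaction with a negative sign. The direction was partly set by that choice, and the number called was favoured by it. Unlisted genes had no test and count as not called in the shares of all genes, so the 58.3% is a description. Acinar enzymes had 21 of 25 genes negative in the same test, and their part in the ER genes was not tested. Xist and Tsix were called positive, and the part of sex was not tested.

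**Figure D5:**
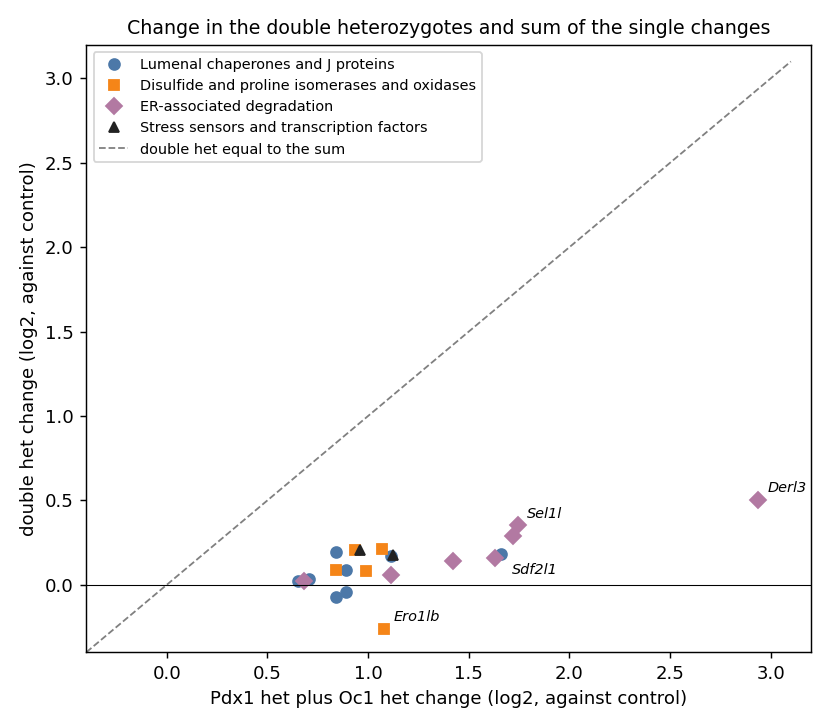
Log2 change against control in the double heterozygotes (vertical axis) and the sum of the changes in the Pdx1 and Oc1 heterozygotes (horizontal axis), 1 point for each of the 22 listed genes by role. All points lie below the dashed line of equality, with Derl3 farthest to the right at 0.50 in the double heterozygotes.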

How the data were processed

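RNA libraries were made from total RNA with a TruSeq kit, per the labels' protocols. Build mm9, edgeR and CASAVA 1.8.2 were used, per the submitters' processing notes, and the aligner is not given in the sources used here. The 16 per-library columns of the count table bear sequencing run, lane and index names that match no sample's labels. They were not used, so batches, outlying libraries and edgeR refits were not analysed here. From that table only the 22869 gene symbols were read.

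Per the file headers, the authors deposited log2 fold changes, mean log2 CPM, p-values and adjusted p-values in 5 blocks for 2283 genes. In 8 rows the values were moved back by 1 column. Under the heading double against Pdx1, all 2275 rows held the Pdx1 less the double heterozygote difference (tolerance 1e-06), and their sign was turned. Under the heading double against Oc1, all 2279 rows held the Pdx1 less the Oc1 heterozygote difference, and they were read so. Exchanged headings of blocks 1 and 3 would give the same arithmetic. Median variances of blocks 2 to 5 relative to block 1 were 1.15, 0.905, 0.897 and 1.14; group sizes give 1.17, 0.9, 0.9 and 1.17 as printed and 1.30, 1.11, 1 and 1.19 exchanged. The printed headings were kept. Neither block called any of the 36 genes.

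Here, implied standard errors were the log2 fold change over the normal quantile of its p-value (none for values of 0.9 or more). The interaction's variance was averaged from 2 sums over independent blocks, and that of double against Oc1 heterozygote was scaled from it by group size. For Calr, Pdia6 and Eif2ak3 the double against Pdx1 block gave no implied error, so the other sum was used alone. Normal p-values got a Benjamini-Hochberg adjustment across 22869 genes, those not listed being set to 1. The derivation was tested on simulated data without the listing filter, so that test does not cover the effect of the filter. Whether replicate libraries stem from separate litters is not labelled, so p-values measure the spread between libraries. Members, lists, the fold minimum and tests were chosen with earlier results of these data known. All 36 genes could be named; other genes were named if called in the Oc1 heterozygotes, or as leading markers. Python 3.11.15 with scipy 1.17.1 was used.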

Additional observations from a re-analysis of the deposited data

Results flagged for a closer look

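The change with the Oc1 allele differed between embryos with and without the Pdx1LacZ allele for 21 of the 36 genes, by the derived interaction test. Each value is the log2 change in the double heterozygotes less the sum of the single changes, and all 21 were negative. Over all genes counted, 2.97% were negative and 1.66% positive. The 22 testable genes were listed for their rise in the Oc1 heterozygotes, which enters with a negative sign. That choice favoured both their shared direction and the number called. Unlisted genes had no test and count as not called in the shares of all genes. Among ERAD genes these were Derl3 (-2.43), Herpud1 (-1.47), Edem2 (-1.43), Sel1l (-1.39), Edem1 (-1.28), Os9 (-1.06) and Syvn1 (-0.66). Among chaperones and J proteins they were Sdf2l1 (-1.48), Manf (-0.94), Creld2 (-0.93), Hyou1 (-0.91), Dnajb11 (-0.81), Dnajc3 (-0.67), Dnajb9 (-0.65) and Calr (-0.63). Isomerases and oxidases gave Ero1lb (-1.34), P4hb (-0.90), Ppib (-0.86), Pdia5 (-0.76) and Pdia6 (-0.73), and of the sensors Eif2ak3 (-0.76) passed. The weakest of these calls was Calr, with an adjusted p of 0.0271 by the normal test on derived values. Acinar enzymes, sex-linked transcripts and markers of other cells moved in the same 3 Oc1 libraries, and their part was not tested.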

How the results depend on the processing

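The number of genes called out of 36 stayed within 1.5 times its value under adjusted p thresholds of 0.1 and 0.01, a minimum mean log2 CPM of 1 and, for the derived comparisons, other variance estimates. A fold minimum of 2 lowered the count from 22 to 6 in the Oc1 heterozygotes against control, from 12 to 4 in Pdx1 against Oc1 heterozygotes, from 16 to 5 in double against Oc1 heterozygotes and from 21 to 8 in the interaction. The share of all genes at this and the other changed settings was not computed. Without a fold minimum the count in Pdx1 against Oc1 heterozygotes rose to 20 of the 22 listed genes. The counts of 0 against control in the Pdx1 and double heterozygotes stayed at 0 under these settings. Without a fold minimum that holds for the 22 listed genes only, since the 14 unlisted genes have no values. No paired analysis was possible because the count columns carry no replicate number, and leaving out libraries, DESeq2 and a filter on counts were not run for the same reason. The Oc1 group rests on 3 libraries, and which of them carry the change was not analysed here. Unlisted genes have no values, so changes in Hspa5 or Hsp90b1 that were under 1.5-fold, or larger with an adjusted p of 0.1 or more, would not be seen.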
